A study of Glycine max with 7 samples.

Results

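The outermost 1 Mb at both sides of the 20 soybean chromosomes held 5703 reproducible binding sites of 2 transcription factors, 8.09% of the 70496 sites found in all. Of these, 2620 belonged to GLYMA.04G093300 (8.48% of its 30906 sites) and 3083 to GLYMA.06G314400 (7.79% of its 39590 sites). Sites were found by chromatin immunoprecipitation and sequencing (ChIP-seq), in which an antibody pulls down a protein with the DNA fixed to it. To form a site, overlapping peaks of a factor's replicates were joined, and the site was kept when its midpoint lay within 1 Mb of the start or of the far end of a chromosome. As no chromosome lengths were used, the far end was set where the last peak of the 4 lists ends. A peak therefore touches the far end of every chromosome by construction, and does not so touch the start.

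The chromatin came from cotyledon-stage embryos of the cultivar Williams 82, dissected out of seeds of 3.5 to 4.5 mm, and the labels name no genotype other than this cultivar for any sample. GLYMA.04G093300 was pulled down with 2 µg and GLYMA.06G314400 with 3 µg of an antibody raised against a peptide of the protein, in 2 libraries each. By the sample titles, GLYMA.04G093300 has replicates 1 and 2, and GLYMA.06G314400 has replicates 2 and 3. The peak names inside the lists give the same GLYMA.04G093300 libraries, in this order, the numbers 3 and 4. Those of GLYMA.06G314400 are 4 and 1 there. The numbers of the titles are used throughout. The 3 input samples were not analysed here. Whole embryos were used, so a peak averages over all their cell types.

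Chromosome ends carry telomeres, short repeats that protect the DNA from being read as a break. The stretch next to them, the subtelomere, is often rich in repeats, and inward of it the arms of soybean chromosomes hold most of the genes. The peak lists call GLYMA.06G314400 AREB3, in Arabidopsis the name of a bZIP factor of the family that binds abscisic acid response elements, through which this hormone acts in maturing seeds. They call GLYMA.04G093300 HB22, and HB is the usual prefix of homeobox genes, which encode DNA-binding proteins of many kinds.

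The 40 ends together cover 40 Mb, which is 4.22% of the 949 Mb spanned by the chromosomes. They held 4239 peaks of GLYMA.04G093300 replicate 1 and 3365 of replicate 2, and 3508 peaks of GLYMA.06G314400 replicate 2 and 3910 of replicate 3. These made up 8.37% and 8.47% of the GLYMA.04G093300 lists, against 7.74% and 7.80% of the lists for GLYMA.06G314400, so every library had more peaks there than its share of the span. This gives 8.42% ± 0.0742 with GLYMA.04G093300 and 7.77% ± 0.0405 with GLYMA.06G314400 (SD, n = 2 each). Both GLYMA.04G093300 libraries lay above both GLYMA.06G314400 libraries, for which the exact two-sided permutation p was 0.333, the smallest that 2 libraries against 2 allow. That GLYMA.06G314400 lies more often in the middle of the chromosomes is known from the same lists, so this difference is not independent of it. From 1 to 5 Mb the order was the same, with 35.1% and 34.9% of the GLYMA.04G093300 lists against 33.4% and 33.8% for GLYMA.06G314400.

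The first comparison set the outermost 1 Mb against the adjoining stretch from 1 to 5 Mb. Peaks were slightly sparser in the outermost 1 Mb in all 4 libraries. The density was 106.0 peaks per Mb against 111.1 in GLYMA.04G093300 replicate 1, and 84.1 against 86.6 in its replicate 2. GLYMA.06G314400 replicate 2 had 87.7 against 94.5, and its replicate 3 had 97.8 against 105.9. The outermost 1 Mb was thus below the adjoining stretch by 4.64% and 2.90% in the GLYMA.04G093300 libraries. For GLYMA.06G314400 it was below by 7.19% and 7.66%. Over the 4 libraries the mean log2 ratio of the densities was -0.083 ± 0.034 (SD, n = 4). An exact two-sided sign-flip permutation test over libraries gave p = 0.125, the smallest that 4 libraries allow, and the Benjamini-Hochberg adjusted p over 3 such tests was 0.375. The 2 libraries of a factor give 2 measurements of nearly the same sites, so this p measures the spread between libraries only. By factor, the mean log2 ratio came to -0.055 ± 0.018 with GLYMA.04G093300 and to -0.11 ± 0.0052 with GLYMA.06G314400 (SD, n = 2 each, exact two-sided permutation p = 0.333). With the 10000 peaks of highest fold in each library, the difference between the factors turned round, to -0.036 from 0.056.

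The deficit was deepest in the first 200 kb. This stretch was singled out after its values were seen. In the outermost 100 kb the density was 55.8 and 51.8 peaks per Mb in GLYMA.04G093300 replicates 1 and 2, and 44.8 and 44.0 in GLYMA.06G314400 replicates 2 and 3. From 100 to 200 kb it was 77.0, 64.0, 60.0 and 63.5 in the same order. From 200 to 300 kb it was 98.8, 76.3, 90.3 and 103.3, and from 300 to 400 kb 101.3, 79.5, 90.3 and 101.3. All of these were still below the density of the adjoining stretch, and from 400 to 500 kb all 4 libraries were above it. From 500 to 600 kb the density was 111.8, 86.3, 89.8 and 105.3, again below the adjoining stretch in every library but GLYMA.04G093300 replicate 1. Between 900 kb and 1 Mb the GLYMA.04G093300 libraries stood at 125.8 and 100.0 peaks per Mb, while those of GLYMA.06G314400 had 101.5 and 113.5. Per Mb, the first 200 kb held 0.573 and 0.638 times as many peaks as the remaining 800 kb of the ends in the GLYMA.04G093300 libraries. The ratio was 0.543 and 0.494 in the GLYMA.06G314400 libraries. Without the first 200 kb, the ends were denser than the adjoining 4 Mb in all 4 libraries, by ratios of 1.04, 1.05, 1.02 and 1.03. From 1 Mb inwards the density declined slowly, from 120.6 to 101.5 peaks per Mb between the second and the fifth Mb in GLYMA.04G093300 replicate 1, and from 110.7 to 96.7 in GLYMA.06G314400 replicate 3.

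**Figure D1:**
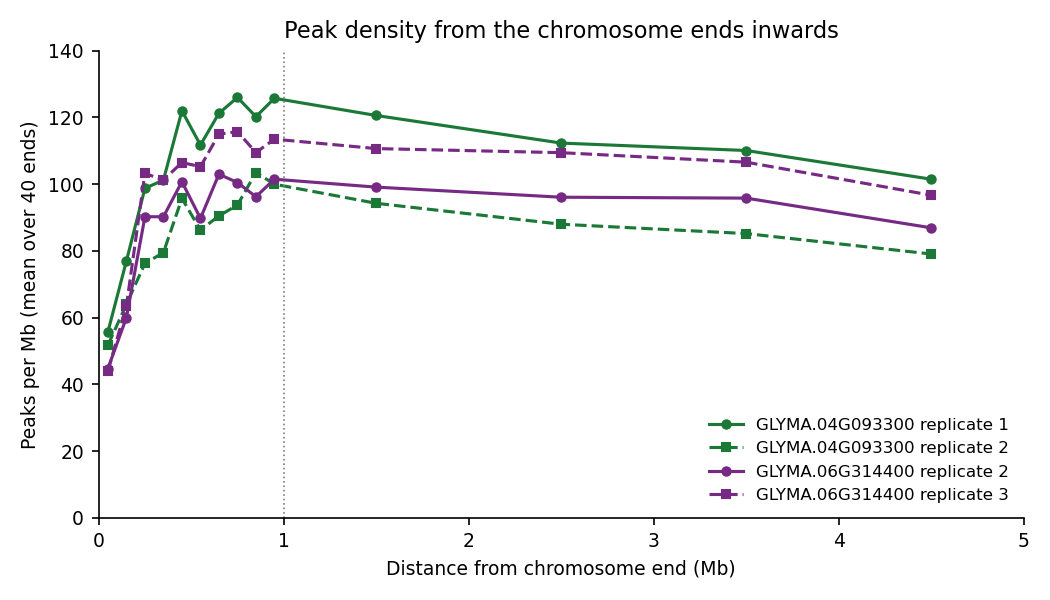
Peaks per Mb, averaged over the 40 chromosome ends, against the distance from the end in Mb for each of the 4 libraries; points stand for bins of 100 kb up to 1 Mb (dotted line) and of 1 Mb beyond. All 4 curves begin at 44.0 to 55.8 peaks per Mb in the outermost 100 kb and reach 100.0 to 125.8 by 1 Mb.

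Reproducible sites followed the peaks. GLYMA.04G093300 had 33.8 sites per Mb in the outermost 100 kb (135 sites), 50.3 in the next 100 kb and 79.0 between 900 kb and 1 Mb. GLYMA.06G314400 had 37.8 sites per Mb in the outermost 100 kb (151 sites), 49.0 in the next and 88.5 between 900 kb and 1 Mb. In the outermost 50 kb there were 54 and 66 sites, and 14 of the 40 ends had none of GLYMA.04G093300 and 14 none of GLYMA.06G314400. The ends were cut into 400 windows of 100 kb, which held a median of 14 sites of the 2 factors together. In 7 windows there was no site of either factor. Of these, 6 lay in the first 200 kb of an end's 1 Mb, a stretch singled out after its low density was seen. They were the first 100 kb at the starts of chromosomes 3, 13 and 14 and at the far end of chromosome 11, and the stretch from 100 to 200 kb at the starts of chromosomes 1 and 17. Each of these 6 windows held a peak in at least 1 list. The other was at the start of chromosome 13 from 200 to 300 kb, where none of the 4 lists had a peak.

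At the starts, the outermost site lay at a median of 38.6 kb for GLYMA.04G093300 and 35.9 kb for GLYMA.06G314400. At the far ends, where the last peak sets the zero, the medians were 6.29 kb and 15.3 kb, so the sides are not compared. It was farthest at the start of chromosome 16 for GLYMA.04G093300, at 135.7 kb, and at the start of chromosome 1 for GLYMA.06G314400, at 202.1 kb. At 18 ends the outermost site belonged to GLYMA.04G093300 and at 22 to GLYMA.06G314400. The start of chromosome 16 held 5 GLYMA.06G314400 sites before the first GLYMA.04G093300 site, the longest such run. The GLYMA.04G093300 lists held 6 peaks in the same stretch, of which 5 did not recur in the other replicate and 1 is part of that first site. The sites nearest to a chromosome start were weak in GLYMA.04G093300. They lay on chromosome 1 from 11349 to 11907 (fold 3.16 in replicate 1 and 2.38 in replicate 2) and from 12112 to 12391 (3.01 and 3.47). Fold is the enrichment at the peak's summit within 1 library, as the authors' peak caller gave it. For GLYMA.06G314400 the nearest lay on chromosome 16 between 13557 and 13913 (5.68 in replicate 2 and 5.54 in replicate 3) and on chromosome 6 between 16442 and 16952 (17.9 and 26.2). All 4 of these sites overlapped no peak of the other factor. Positions are 1-based in the coordinates of the lists, and the genome build is not given in the sources used here.

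At the far ends, the peak that set the chromosome length had a median fold of 4.01, and its fold ranged from 1.92 on chromosome 13 to 14.8 on chromosome 5. On 3 chromosomes, 16, 18 and 20, all 4 lists had a peak there, on 10 it was in 2 or 3 lists, and on 7 in 1. GLYMA.04G093300 had a reproducible site within 1 kb of the far end on 8 chromosomes, and GLYMA.06G314400 on 9. Since the last peak sets the far end, some peak always lies there, and these counts depend in part on this construction. A site within 1 kb need not hold the last peak. On chromosome 19 the last peak was in 1 list, yet a GLYMA.06G314400 site lay 0.94 kb from the end.

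The second comparison was among the 40 ends. Their numbers of sites differed widely. For GLYMA.04G093300 they ran from 15 to 102, with a median of 67 and an SD over ends of 20.8. For GLYMA.06G314400 they ran from 10 to 109, with a median of 78 and an SD of 19.9. Replicates ranked the ends alike: over the 40 ends the peak numbers of the GLYMA.04G093300 replicates had a Pearson r of 0.969 and a Spearman rho of 0.962, and those of the GLYMA.06G314400 replicates 0.977 and 0.967. The site numbers of the factors had a Pearson r of 0.839 and a Spearman rho of 0.822. These are descriptions, since the ends share libraries and overlapping sites are in part the same places.

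The end with the fewest sites of both factors was the start of chromosome 13. It held 23 and 20 peaks of GLYMA.04G093300 in replicates 1 and 2, which gave 15 sites. It held 15 and 13 peaks of GLYMA.06G314400 in replicates 2 and 3, which gave 10 sites. Every library was far below its median end, which had 109, 85.5, 90.0 and 100.5 peaks. The stretch from 1 to 5 Mb behind it was sparser still, with 6.50 GLYMA.04G093300 sites and 8.75 GLYMA.06G314400 sites per Mb, the lowest of the 40 adjoining stretches for each factor. Of its sites, 5 of each factor overlapped one of the other. Without this end the range was 33 to 102 for GLYMA.04G093300 and 44 to 109 for GLYMA.06G314400.

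Next for GLYMA.04G093300 were the start of chromosome 3 with 33 sites (61 and 51 peaks in replicates 1 and 2), and the far ends of chromosomes 6 and 15 with 34 each. By peaks, these far ends had fewer than the start of chromosome 3, with 53 each in replicate 1 and 45 and 49 in replicate 2. The order of these 3 thus depends on the measure. Next for GLYMA.06G314400 were the far end of chromosome 15 with 44 sites (51 and 52 peaks in replicates 2 and 3) and the start of chromosome 20 with 49 (58 and 66 peaks). At the other extreme, the far end of chromosome 3 had the most GLYMA.04G093300 sites, 102, from 155 and 126 peaks in replicates 1 and 2. It was followed by 3 ends with 93 each, the far end of chromosome 7 and the starts of chromosomes 17 and 18. GLYMA.06G314400 had most sites at the far end of chromosome 7, with 109 from 123 and 134 peaks in replicates 2 and 3. The far end of chromosome 19 had 108 (126 and 135 peaks) and the start of chromosome 2 had 103 (110 and 132 peaks). By peaks, the far end of chromosome 19 stood above that of chromosome 7 in both replicates, so their order depends on the measure.

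**Figure D2:**
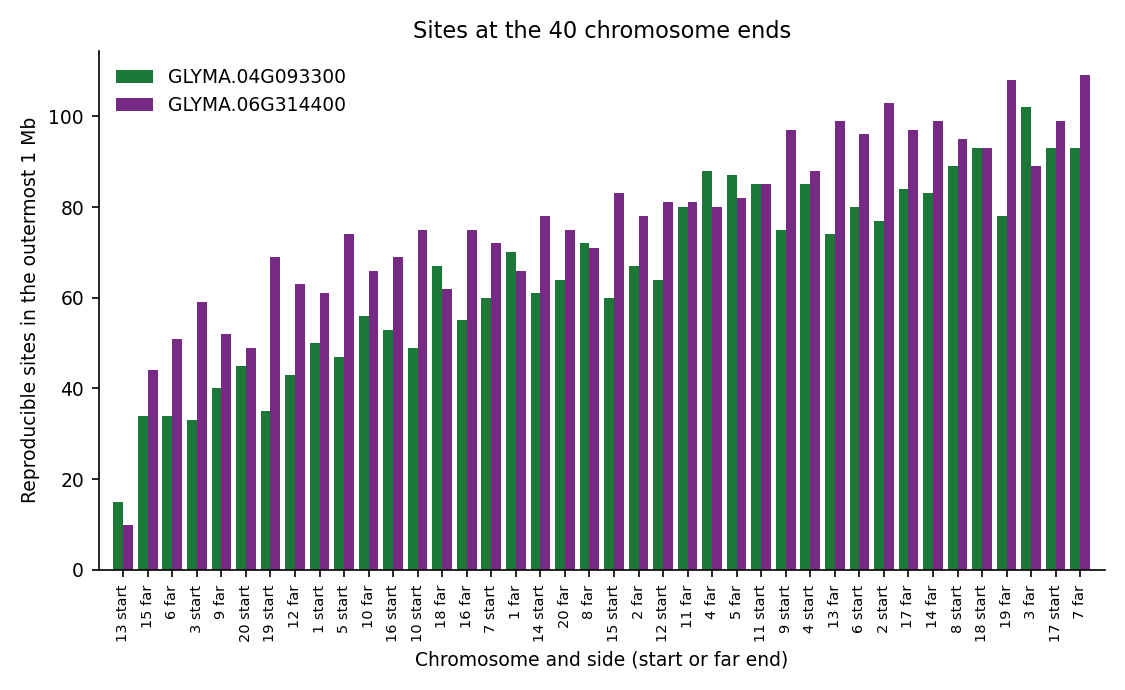
Reproducible sites in the outermost 1 Mb (bars, counts) at each of the 40 chromosome ends, ordered by the sum over both factors. The start of chromosome 13 stands lowest with 15 and 10 sites, and the far end of chromosome 7 highest with 93 and 109.

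Neither side of the chromosomes held more sites throughout. GLYMA.04G093300 had 1249 sites at the starts and 1371 at the far ends, and the far end had more on 11 of 20 chromosomes. GLYMA.06G314400 had 1536 and 1547, and the far end had more on 9 of 20. The far window begins at the last peak and the start window does not, so the sides are not alike by construction. In the first 200 kb, GLYMA.04G093300 had 144 sites at the starts and 192 at the far ends, and GLYMA.06G314400 had 152 and 195. The densest windows of 100 kb held 36 sites each. They were the stretches from 400 to 500 kb at the start of chromosome 6 (15 GLYMA.04G093300 and 21 GLYMA.06G314400 sites), from 800 to 900 kb at the start of chromosome 9 (19 and 17), and from 400 to 500 kb at the far end of chromosome 17 (19 and 17). At the start of chromosome 9, 13 sites of each factor in this window overlapped a site of the other, and at the far end of chromosome 17 only 6 and 5 did.

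Single ends departed from their adjoining 4 Mb in both directions. At 10 of the 40 ends (25.0%) all 4 libraries were denser in the outermost 1 Mb than in the adjoining stretch, and at 18 (45.0%) all 4 were sparser. As background, the same measure was taken for 766 windows of 1 Mb along the chromosomes, which span 949 Mb. Each window was set against the next 4 Mb towards the middle of the chromosome. All 4 libraries were denser in 55.5% of them and sparser in 20.8%. The ends were thus denser less often, and sparser more often, than these windows. The windows reach well inward of the adjoining stretch, so they are not like the ends in place, and no test over windows was made. For GLYMA.04G093300 the ratio of site density at the end to that of the adjoining stretch ran from 0.546 to 2.31 with a median of 0.970, and for GLYMA.06G314400 from 0.584 to 1.69 with a median of 0.907. The far end of chromosome 7 was among those enriched in every library, with 93 GLYMA.04G093300 sites against 49.3 per Mb behind it (ratio 1.89) and 109 GLYMA.06G314400 sites against 69.8 (1.56). Chromosome 14 had 83 against 46.0 (1.80) and 99 against 70.0 (1.41) at its far end. Among the depleted, the far end of chromosome 12 had 43 GLYMA.04G093300 sites against 78.8 per Mb (0.546) and 63 GLYMA.06G314400 sites against 91.8 (0.687). The far end of chromosome 1 had 70 against 93.3 (0.751) and 66 against 113.0 (0.584). These 4 ends were chosen after their values were seen. Over the 40 ends, the density of an end and that of its adjoining stretch had a Pearson r of 0.600 for GLYMA.04G093300 and 0.600 for GLYMA.06G314400. Without the start of chromosome 13 these were 0.525 and 0.462, so part of the relation rests on that end.

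**Figure D3:**
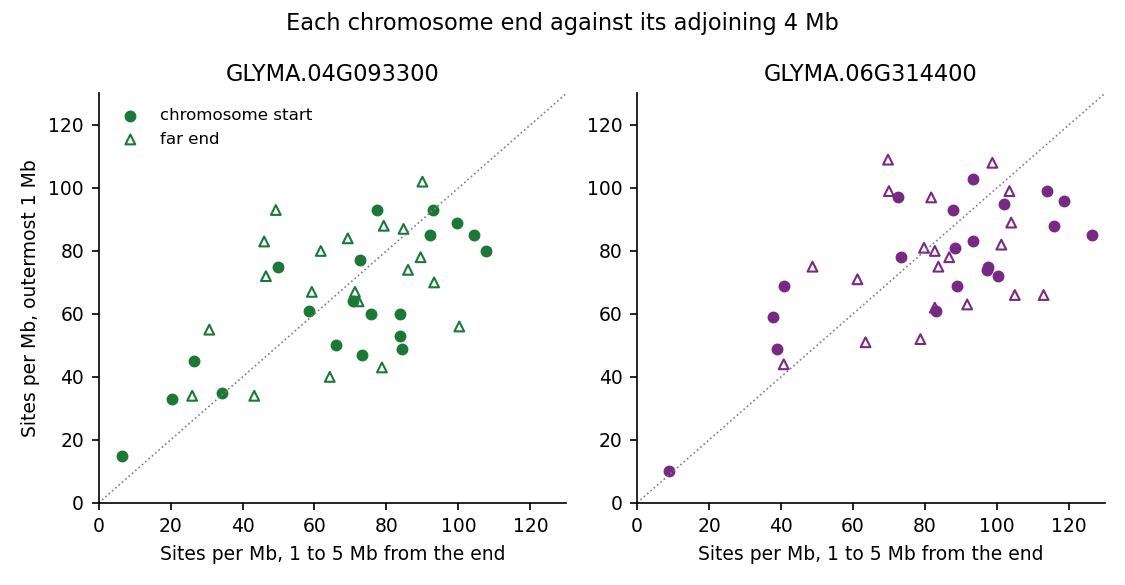
Sites per Mb in the outermost 1 Mb of each chromosome end against sites per Mb in the adjoining 1 to 5 Mb, for GLYMA.04G093300 (left) and GLYMA.06G314400 (right); filled circles are chromosome starts, open triangles far ends, and the dotted line marks equal density. Points lie on both sides of the line, and the start of chromosome 13 stands at the lower left with 6.50 and 8.75 adjoining sites per Mb.

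The balance between the factors varied from end to end. GLYMA.06G314400 had more sites at 31 ends, GLYMA.04G093300 at 7, and 2 were equal. To allow for list length, the peaks at an end were expressed per 1000 peaks of their library. At 21 ends (52.5%) both GLYMA.04G093300 libraries were above both GLYMA.06G314400 libraries, and at 6 (15.0%) both GLYMA.06G314400 libraries were above. Among all 926 windows of 1 Mb along the chromosomes, GLYMA.04G093300 was above in this way in 24.2% and GLYMA.06G314400 in 40.7%. The ends make up 4.22% of the span and the adjoining stretch 16.9%, so most of these windows lie further inward. GLYMA.04G093300 was also ahead in the adjoining stretch, with 35.1% and 34.9% of its peaks against 33.4% and 33.8% for GLYMA.06G314400. The higher share is therefore not particular to the ends. Of 1000 peaks, GLYMA.04G093300 had 3.06 and 3.17 at the far end of chromosome 3, where GLYMA.06G314400 had 2.32 and 2.41. Chromosome 18 had 2.27 and 2.22 at its far end against 1.59 and 1.58. The start of chromosome 19 was the reverse, with 1.11 and 1.18 for GLYMA.04G093300 against 1.68 and 1.68 for GLYMA.06G314400. It held 35 GLYMA.04G093300 and 69 GLYMA.06G314400 sites, a ratio of 1.97, the highest of the 40, where the median end had 1.20. The lowest ratio was 0.667, at the start of chromosome 13. The far end of chromosome 18 was chosen here after its values were seen.

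**Figure D4:**
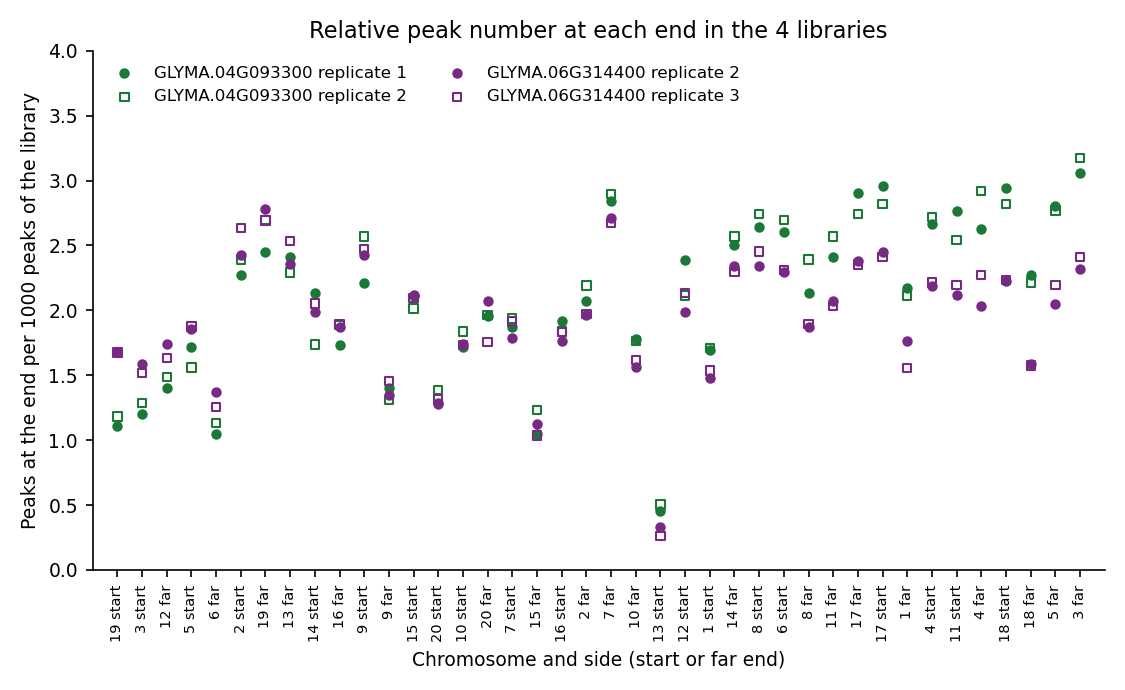
Peaks in the outermost 1 Mb per 1000 peaks of the library, for the 4 libraries at each of the 40 ends, ordered by the mean of the GLYMA.04G093300 libraries minus that of the GLYMA.06G314400 libraries. Replicates of a factor mostly lie close together, and the gap between factors is widest at the far ends of chromosomes 3, 5 and 18 in 1 direction and at the start of chromosome 19 in the other.

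The third comparison asked whether sites at the ends differed from their neighbours in other measures. The fold of peaks differed by less than the spread between libraries. The median fold of peaks in the outermost 1 Mb was 4.22 in GLYMA.04G093300 replicate 1 and 3.79 in replicate 2, against 4.25 and 3.88 in the adjoining stretch. It was 6.41 in GLYMA.06G314400 replicate 2 and 6.57 in replicate 3, against 6.35 and 6.58. The mean log2 ratio was -0.0081 ± 0.019 (SD, n = 4), lower at the ends in 3 of 4 libraries, with an exact sign-flip permutation p of 0.625 and an adjusted p of 0.625. Without GLYMA.04G093300 replicate 2 it was 0.00036, so its sign rests on that library. The median width of the peaks was 317 and 311 bp at the ends against 318 and 322 bp for GLYMA.04G093300, and 400 and 415.5 bp against 400 and 419 bp for GLYMA.06G314400. The mean log2 ratio of the widths was -0.017 ± 0.023 (SD, n = 4, exact sign-flip permutation p = 0.25, adjusted p = 0.375). Among the ends, the median fold ran from 3.89 to 4.50 in GLYMA.04G093300 replicate 1 and from 3.55 to 4.24 in its replicate 2. It varied more in GLYMA.06G314400, from 5.06 to 8.93 in replicate 2 and from 5.21 to 8.19 in replicate 3.

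The strongest peaks were not concentrated at the ends. Of the 1000 peaks of highest fold, 61 in GLYMA.04G093300 replicate 1 and 77 in replicate 2 lay in the outermost 1 Mb, and 73 and 72 in the GLYMA.06G314400 libraries. These shares of 6.1%, 7.7%, 7.3% and 7.2% were below the share of all peaks of the same library in each case. Over the full lists, peaks at the ends recurred in the other replicate about as often as those beside them. In GLYMA.04G093300, 63.2% of replicate 1 and 80.0% of replicate 2 recurred, against 63.0% and 80.9% in the adjoining stretch and 62.7% and 80.0% over the whole lists. In GLYMA.06G314400, 89.5% of replicate 2 and 79.4% of replicate 3 recurred, against 89.4% and 79.0% in the adjoining stretch and 88.7% and 79.4% over the whole lists. The differences between end and adjoining stretch, from -0.876 to 0.439 percentage points, had no common direction. Among the 10000 peaks of highest fold in each library, the mean difference was -2.68 points for GLYMA.04G093300 and 1.19 points for GLYMA.06G314400.

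Sites at the ends were spaced slightly wider than those beside them. The median distance between the starts of neighbouring sites was 7719 bp against 6915 bp for GLYMA.04G093300 and 7092 bp against 6656 bp for GLYMA.06G314400. From 200 kb to 1 Mb of the ends it was 7485.5 and 6585 bp, so for GLYMA.06G314400 it was not wider there. Of the GLYMA.04G093300 sites with a previous site at the same end, 16.1% began less than 1 kb after it, against 16.4% in the adjoining stretch. For GLYMA.06G314400 these were 12.8% and 13.8%. Sites of at least 1000 bp made up 4.31% of GLYMA.04G093300 sites at the ends (113 sites) against 5.38% beside them, and 5.55% of GLYMA.06G314400 sites (171 sites) against 4.84%. The widest were on chromosome 17, where a GLYMA.04G093300 site ran from 955392 to 957533 and a GLYMA.06G314400 site from 795160 to 797876.

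The share of sites that overlapped the other factor was slightly lower at the ends than beside them for both factors. Of the 2620 GLYMA.04G093300 sites, 1009 or 38.5% (95% Wilson interval 36.7 to 40.4) overlapped a GLYMA.06G314400 site. The share was 41.4% (40.5 to 42.3) in the adjoining stretch and 40.5% over all sites. Of the 3083 GLYMA.06G314400 sites, 1004 or 32.6% (30.9 to 34.2) lay over one of GLYMA.04G093300, against 33.6% (32.8 to 34.4) in the adjoining stretch and 31.4% over all sites. The intervals cover counting error only, and neighbouring sites are not independent. The overlaps are the same pairs seen from either factor, so the shares of the factors are not separate evidence. No test was made. End minus adjoining stretch, the difference was -2.86 points for GLYMA.04G093300, but -0.356 with the 10000 peaks of highest fold in each library. For GLYMA.06G314400 it was -1.03, and it turned to 0.973 with an outer window of 2 Mb set against 2 to 5 Mb. With the ends taken from 200 kb to 1 Mb, the differences were -1.53 and -0.48 points. Set against its own adjoining stretch, the share was lower at 25 of 40 ends (62.5%) for GLYMA.04G093300 and at 20 of 40 for GLYMA.06G314400. The same was taken for windows of 1 Mb along the chromosomes, each set against the next 4 Mb inward. Of these, 50.3% of 735 had a lower share for GLYMA.04G093300 and 47.0% of 751 for GLYMA.06G314400. Among the ends, the share was lowest at the far end of chromosome 12 for both, at 23.3% and 15.9%. It was highest at the start of chromosome 3 for GLYMA.04G093300, where 19 of 33 sites or 57.6% overlapped, and at the start of chromosome 13 for GLYMA.06G314400, where 5 of 10 did.

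By distance, the share of overlapping sites was lowest in the outermost 100 kb. There 26.7% of GLYMA.04G093300 sites (19.9 to 34.7) and 23.8% of GLYMA.06G314400 sites (17.7 to 31.2) overlapped. In the outermost 50 kb the shares were 22.2% and 16.7%, on 54 and 66 sites. From 200 to 300 kb they were 44.0% and 35.0%. Over the first 200 kb together they were 29.5% (24.8 to 34.5) and 28.2% (23.8 to 33.2), against 39.8% and 33.1% in the rest of the ends. Fewer sites of either factor lie in the outermost stretch, so fewer can overlap by position alone, and the part of this in the lower share was not tested.

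**Figure D5:**
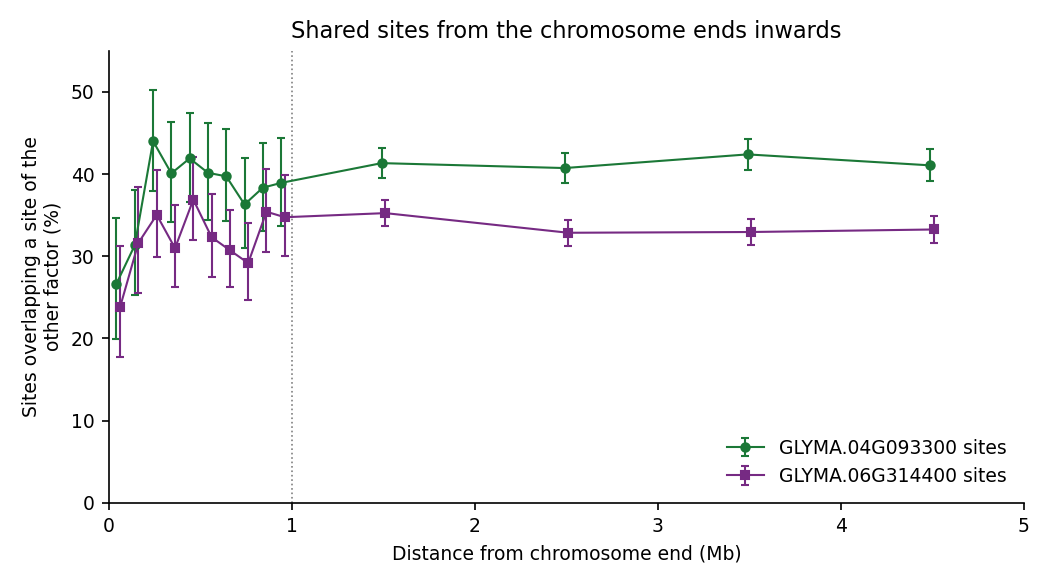
Percentage of sites that overlap a site of the other factor against the distance from the chromosome end in Mb, in bins of 100 kb up to 1 Mb (dotted line) and of 1 Mb beyond; bars are 95% Wilson intervals, which cover counting error only. The shares begin at 26.7% for GLYMA.04G093300 and 23.8% for GLYMA.06G314400 and stand at 44.0% and 35.0% from 200 to 300 kb.

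Sites clear of every peak called for the other factor made up 1361 or 51.9% of GLYMA.04G093300 sites at the ends, against 49.0% in the adjoining stretch and 49.6% over all sites. For GLYMA.06G314400 they were 1601 or 51.9%, against 50.3% and 53.0%. The summits of overlapping sites lay a median of 143 bp apart at the ends and 139 bp apart in the adjoining stretch. They were within 100 bp of each other in 37.0% of 1033 pairs at the ends and 38.2% of 4594 pairs beside them.

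The strongest GLYMA.04G093300 site of the ends lay on chromosome 15 from 51528847 to 51529570, 218.3 kb from the far end, and its fold was 22.1 (replicate 1) and 14.6 (replicate 2). Rank is set by the smaller of the percentiles of fold in the replicates, and this site ranked 31 among all sites of the factor. It was followed by sites on chromosome 5 between 715303 and 716273 (18.0 and 17.9) and on chromosome 8 between 47623703 and 47625152 (23.1 and 14.1). Below these came sites on chromosome 5 between 41787554 and 41788397 (18.7 and 13.7) and on chromosome 6 between 406373 and 406847 (22.6 and 13.5). Of these 5, the site near the start of chromosome 5 overlapped no GLYMA.06G314400 site and the other 4 did. It did overlap a GLYMA.06G314400 peak of at least 1 library.

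The strongest GLYMA.06G314400 site of the ends lay on chromosome 18 from 969495 to 970849, where its fold reached 52.5 (replicate 2) and 57.1 (replicate 3). It ranked 16 among all sites of that factor. Below it came sites on chromosome 10 between 918405 and 919286 (51.0 and 55.1) and on chromosome 18 between 57937188 and 57937860 (55.4 and 51.0). The latter was only 37.5 kb from the far end, inside the sparse outermost stretch. They were followed by sites on chromosome 12 between 39563279 and 39564119 (48.4 and 50.2) and on chromosome 2 between 47899715 and 47901672 (47.4 and 47.9). The sites at the start of chromosome 18 and on chromosome 2 overlapped a GLYMA.04G093300 site, and the other 3 did not. Of those 3, the site near the far end of chromosome 18 did overlap a GLYMA.04G093300 peak of at least 1 library. Those on chromosomes 10 and 12 overlapped none.

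Regions of the ends that overlap between the factors were ranked by the smaller of the factors' ranks. The highest, at percentile 97.1 of fold or above in all 4 libraries, lay on chromosome 14 from 48673267 to 48674194, 355.5 kb from the far end. GLYMA.04G093300 had folds of 16.0 and 8.75 in it, GLYMA.06G314400 had 32.1 and 37.6, and a distance of 48 bp separated the summits of the factors. A region on chromosome 3 (45014559 to 45015832) came next. Its folds were 8.88 and 7.19 for GLYMA.04G093300 against 32.0 and 47.0 for GLYMA.06G314400, with 405 bp between the summits. In a region on chromosome 4 (307880 to 308722) the respective folds were 10.4 and 6.99 against 49.7 and 30.6, and 121 bp lay between the summits.

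The sites next to the limit of 1 Mb are given here by their values alone. The GLYMA.04G093300 site just inside it, on chromosome 1 from 55831684 to 55832004, had folds of 4.43 and 3.66 in replicates 1 and 2. The one just outside, on chromosome 16 from 1000030 to 1000548, had 5.41 and 4.38. For GLYMA.06G314400 the site just inside, on chromosome 11 from 33756686 to 33757243, had 4.75 and 6.56 in replicates 2 and 3, and the one just outside, on chromosome 16 from 999920 to 1000361, had 4.71 and 5.19.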

How the data were processed

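The authors called peaks in each ChIP library separately and deposited 1 list per library. The submitters' processing notes name Bowtie 0.12.7 and MACS3 without settings, and the use of the inputs as control is not given in the sources used here. Per peak, the deposited lists hold positions, a fold enrichment (a ratio), −log10 p-values and −log10 q-values, and a score, which was not used. The smallest deposited −log10 q-value was 2.006, so q was at most 0.01. The lists hold no counts of reads, so depth is unknown.

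Peaks overlapping by 1 bp or more were joined into sites. Densities, medians and shares were computed per library in Python 3.11.15 with scipy 1.17.1, pandas 2.3.3 and numpy 2.4.6, and drawn with matplotlib 3.10.9. Tests were exact permutation tests over libraries, and the code was tested on simulated data. Sites named are, per factor, the 5 of highest rank and the 2 nearest to a chromosome start, and the 3 strongest shared regions. Ends named are the 3 with most and fewest sites, and windows named the 3 with most. The members and these rules were chosen with earlier results of these data known. The design text calls the replicates biological. Whether they came from separate plants is not stated, so p-values measure only the spread between these libraries.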

Additional observations from a re-analysis of the deposited data

Results flagged for a closer look

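Scaffolds outside the 20 chromosomes, which no comparison above uses, held 157 sites of GLYMA.04G093300 and 207 of GLYMA.06G314400.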

How the results depend on the processing

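Of 92 values recomputed under alternatives, 77 were counted as the same, 10 moved and 5 turned round. A value counted as the same if it kept its direction or stayed within the spread. For the number of sites at the median end, its ratio to the main value had to stay within a set limit instead. The lower density of the ends (mean log2 ratio -0.083) became 0.040 with an outer window of 2 Mb and 0.049 with the window from 200 kb to 1 Mb, an alternative chosen after seeing the data. The window from 200 kb to 1 Mb leaves out the sparse first 200 kb. The window of 2 Mb dilutes it, and was also set against 2 to 5 Mb in place of 1 to 5 Mb. The part of each in the change was not tested. With 500 kb the log2 density ratio was -0.29. The difference between the factors became -0.036 with the 10000 peaks of highest fold. The log2 ratio of fold became 0.000028 with 2 Mb. With the 10000 peaks, the recurrence at the ends minus the adjoining stretch was -2.68 points for GLYMA.04G093300 and 1.19 for GLYMA.06G314400 (from -0.337 and 0.241). The overlap difference of GLYMA.04G093300 was -0.356 points (from -2.86), and the median end held 12 and 15 sites per Mb, lower by construction. With 500 kb the recurrence differences were 0.474 and -0.125. With 2 Mb the recurrence difference of GLYMA.06G314400 was -0.092 and its overlap difference 0.973 (from -1.03). Except where the construction shows it, the cause was not tested.

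Leaving out each library in turn gave a log2 density ratio of -0.097 to -0.073, a fold ratio of -0.015 to 0.00036, a width ratio of -0.022 to -0.0055 and a difference between factors of 0.043 to 0.069. Overlap differences ran from -3.01 to -2.51 points for GLYMA.04G093300 and from -1.95 to -0.828 for GLYMA.06G314400. The median end then held 85.5 to 109 peaks of GLYMA.04G093300 and 90 to 100.5 of GLYMA.06G314400 in place of sites. Lengths from a reference were not run. No paired analysis was possible because the factors share only 1 replicate number, 2 in the titles and 4 in the peak names, which mark the same libraries.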
